A study of Mus musculus with 61 samples.

Results

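The genes followed here, Nlrp5, Ooep, Padi6, Tle6, Khdc3 and Zbed3, encode the proteins of the subcortical maternal complex of the mouse oocyte. They were listed by name and not by a threshold on their values, and all 6 had a row among the 23927 gene rows of the table. The table held 61 libraries, each made from 1 cell of an ovary of a wild-type CD-1 mouse, an outbred stock, at postnatal day 5. Every mouse had been injected into the peritoneum 6 hours earlier, either with the solvent alone or with doxorubicin, an anti-cancer drug that damages DNA. The dose is uncertain, since it is written as 10 with the unit mg/kb, not a unit of dose. There were 16 control oocytes, 16 doxorubicin oocytes, 16 control granulosa cells and 13 doxorubicin granulosa cells, where granulosa cells are the somatic cells that surround the oocyte in its follicle. No label names the animal a cell came from, so each group was counted as 1 sample and its cells were not treated as replicates. No difference given here was therefore tested. Values are CPM, that is the counts of a gene for every 1000000 counts of a cell or of all cells of a group, and ratios are log2 ratios of group CPM. Intervals are 95% intervals for counting error only, of reads or, for shares of cells, of these cells, since PCR copies were not collapsed by molecular identifiers, and the spread between animals is not in them.

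The subcortical maternal complex is a large protein assembly that lies under the plasma membrane of the oocyte and, later, of the cleavage-stage embryo. NLRP5, TLE6 and OOEP form its core, and KHDC3, PADI6 and ZBED3 associate with them. Its transcripts are made by the oocyte as it grows, and the embryos of females that lack a core member arrest early in cleavage, so the genes are called maternal-effect genes. In the neonatal ovary primordial follicles are assembled and the first follicles start to grow, which is when these transcripts begin to accumulate.

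The upstream sequences of Padi6, Nlrp5, Ooep and Zbed3 are shown because factors of the early oocyte bind defined short motifs. For Khdc3 0 bases of the window lay before any annotated exon, and for the Tle6 starts 77 and 27 bases did, so neither gene is shown. The sequences come from RefSeq on GRCm38.p6, which is the mouse build mm10 named in the submitters' processing notes. They are written 5′ to 3′ on the strand of the gene. Capitals mark matches, on either strand, to TAATTG and TAATTA, which are elements bound by the homeobox factor NOBOX, and to CANNTG, the E-box that FIGLA and other basic helix-loop-helix factors bind. The Padi6 stretch is the 250 bases before its start site, at chr4:140742644-140742893 on the minus strand. The Nlrp5 stretch is the 250 bases before its first annotated start, at chr7:23385639-23385888 on the plus strand. The Zbed3 stretch is the 250 bases before its first start, at chr13:95323355-95323604 on the plus strand. The Ooep stretch is the 113 bases, at chr9:78378726-78378838 on the minus strand, that lie before any annotated exon within the 250 bases upstream of its RefSeq start.
Padi6: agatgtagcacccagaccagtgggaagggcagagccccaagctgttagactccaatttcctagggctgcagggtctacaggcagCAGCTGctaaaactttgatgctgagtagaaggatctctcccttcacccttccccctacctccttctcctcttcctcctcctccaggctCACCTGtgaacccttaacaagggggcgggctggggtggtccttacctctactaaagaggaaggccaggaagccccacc
Nlrp5: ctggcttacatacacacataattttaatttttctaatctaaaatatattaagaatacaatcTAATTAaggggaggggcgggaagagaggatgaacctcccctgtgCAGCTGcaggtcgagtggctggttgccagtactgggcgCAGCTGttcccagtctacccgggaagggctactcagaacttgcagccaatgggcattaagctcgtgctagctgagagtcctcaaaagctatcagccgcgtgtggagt
Zbed3: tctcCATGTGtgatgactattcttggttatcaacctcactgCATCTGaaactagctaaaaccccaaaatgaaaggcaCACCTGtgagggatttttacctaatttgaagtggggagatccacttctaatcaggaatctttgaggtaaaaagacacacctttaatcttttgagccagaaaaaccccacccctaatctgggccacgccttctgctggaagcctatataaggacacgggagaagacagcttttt
Ooep: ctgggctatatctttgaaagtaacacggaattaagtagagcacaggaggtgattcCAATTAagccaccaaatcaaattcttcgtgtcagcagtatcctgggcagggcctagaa
The Padi6 stretch holds 2 E-boxes, whose first bases lie at -166 and -78 from the start site. In Nlrp5 there are 2 E-boxes, at -145 and -107, and 1 TAATTA, at -189. Zbed3 has 3 E-boxes, at -246, -209 and -173. Both genes have later RefSeq starts, not shown. The 250 bases before the later Nlrp5 start hold 2 E-boxes, and those before each later Zbed3 start hold 1. None of these windows holds TAATTG or TAATTA. The Ooep stretch has 1 TAATTG on the opposite strand, read as CAATTA, at -195 from the RefSeq start. Of 32851 promoters of 250 bases, 66.2% hold at least 1 E-box, 7.17% hold TAATTG and 4.84% hold TAATTA, so an E-box is common at this length. A match describes the letters only and is not evidence of binding.

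In gene models of GENCODE release M21 on the same build, the members lie on 5 chromosomes and all are protein-coding. Nlrp5 spans chr7:23385889-23441922, Padi6 chr4:140727355-140742643, Tle6 chr10:81590904-81601073 and Zbed3 chr13:95323612-95337841. Ooep, at chr9:78376109-78378725, and Khdc3, at chr9:73101836-73104438, are on the same chromosome on opposite strands. The span of Khdc3 overlaps that of a gene model on its own strand, Gm20509, which had 22 counts over all 61 cells.

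Each library held between 6834594 and 31262609 counts. Of 18 oocyte markers, none of them a member of the complex, 17 had a row, and their sum ranged from 15672 to 31931 CPM in control oocytes and from 10605 to 30805 CPM in doxorubicin oocytes. A sum of 18 granulosa markers was below that of the oocyte markers in every oocyte. It reached 3598, 2993 and 2315 CPM in doxorubicin oocyte replicates 9, 11 and 12, while the highest control oocyte had 815 CPM. These doxorubicin oocytes held 9004, 11105 and 12877 CPM of the 6 complex genes together, the lowest sums of their group. The libraries labelled granulosa cell were less uniform. The oocyte markers summed to 110.0 to 7649.6 CPM, with a median of 862, in the control libraries, and to 209.9 to 28894 CPM, with a median of 3976, in the doxorubicin libraries. This sum exceeded that of the granulosa markers in 3 of 16 control and 8 of 13 doxorubicin granulosa libraries, which go against their label in that respect. Markers of other cells were also present, and doxorubicin granulosa replicate 15 had 34796 CPM of blood and immune markers. Stroma markers summed to 2945 CPM in the control and 1468 CPM in the doxorubicin granulosa group. Values that use granulosa libraries are therefore given with and without these 11 libraries for the member ratios, detection, the make-up of the 6-gene sum and the other lists. Among the libraries then kept, the stroma markers exceeded the granulosa markers in 2 of 13 control and 1 of 5 doxorubicin libraries, and their part in the results was not tested.

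In control oocytes the complex was expressed in every cell. The 6 genes together took between 1.17% and 3.62% of all counts of a control oocyte, with a median of 2.60%, and each had at least 5 reads in 16 of 16 cells (exact binomial 95% interval 79.4% to 100%). To compare genes with each other, CPM was divided by the length in kilobases of the longest coding transcript. On that scale Padi6 led with 6520.0 CPM per kb, and its lowest cell, at 2640.5, was above the highest cell of every other member. Nlrp5 at 1335, Tle6 at 1224 and Ooep at 1105 CPM per kb followed, and the ranges of their cells overlapped almost entirely. Zbed3 stood at 395 CPM per kb, with cells from 209.9 to 566, and Khdc3 was lowest at 147, with cells from 19.3 to 270.2. Zbed3 and Khdc3 overlapped each other, and the highest Zbed3 cell lay above the lowest cells of Nlrp5, at 551, and of Tle6, at 474 CPM per kb. In doxorubicin oocytes the order of Padi6, Zbed3 and Khdc3 was the same, while Ooep at 1235, Tle6 at 1137 and Nlrp5 at 1006 CPM per kb exchanged places within overlapping ranges.

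**Figure D1:**
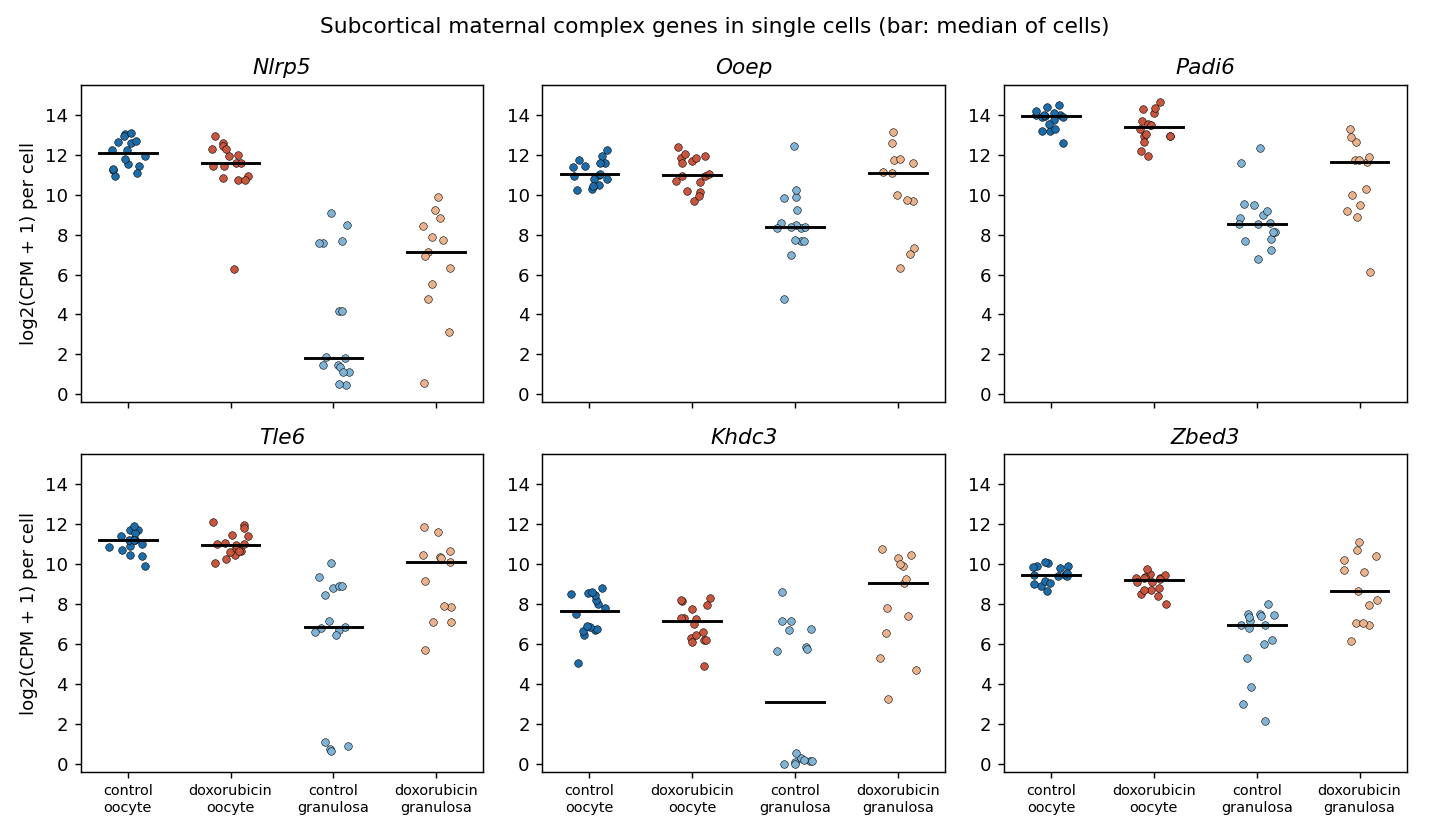
Level of each of the 6 genes in every cell, as log2(CPM + 1) on the vertical axis, by group; each point is 1 cell and the bar is the median of the cells. Oocytes of both treatments lie close together, control granulosa libraries are low and split for Nlrp5, Tle6 and Khdc3, and doxorubicin granulosa libraries reach the oocytes for every gene but Nlrp5, where only 1 low doxorubicin oocyte lies among them.

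Nlrp5, also called Mater, encodes a NOD-like receptor family protein with leucine-rich repeats and was found as an oocyte antigen in autoimmune ovarian disease of the mouse. Its lowest, median and highest values were 1933, 4368 and 8585 CPM in control oocytes. In doxorubicin oocytes they were 76.3, 3075 and 7790.2 CPM. The low value belonged to 1 cell, replicate 10, and the next lowest doxorubicin oocyte stood at 1681 CPM. Replicate 10 held 12935 CPM of the 6 genes together, below the group median of 19400 CPM. Its Padi6 at 8315, Ooep at 1936, Khdc3 at 76.8 and Zbed3 at 418 CPM were below their group medians. Tle6, at 2112 CPM, was above its median. Control granulosa libraries ran from 0.368 through a median of 2.55 to 540.3 CPM, and doxorubicin granulosa libraries from 0.468 through 141 to 954 CPM. Every granulosa library thus lay below every control oocyte, and the group values were 4684, 3528, 96.9 and 244 CPM in the order given.

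Padi6 encodes a member of the peptidylarginine deiminase family that is needed for the cytoplasmic lattices of the oocyte. Control oocytes held 6160.3, 15521 and 22958 CPM as lowest, median and highest cell, and doxorubicin oocytes 3962, 10815 and 25633 CPM. In granulosa libraries these values were 108, 374 and 5203 CPM in controls and 69.0, 3148 and 9885 CPM after doxorubicin. No control granulosa library reached the lowest control oocyte, while the upper doxorubicin granulosa libraries lay inside the oocyte range. The group values were 15211, 12228, 781 and 3123 CPM.

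Ooep, also called Floped, and Khdc3, also called Filia, encode small proteins with a KH domain, a fold that in other proteins binds RNA. Ooep ran from 1210.0 through 2069 to 4859.7 CPM in control oocytes and from 836 through 2021 to 5402 CPM in doxorubicin oocytes. It ran from 26.7 through 333 to 5523 CPM in control granulosa libraries and from 79.5 through 2159.9 to 8946 CPM in doxorubicin granulosa libraries. The median of the doxorubicin granulosa libraries was thus above that of both oocyte groups. One library, control granulosa replicate 8, gave 46.1% of the summed CPM of Ooep in its group and 38.2% of that of Padi6.

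Khdc3 is known for a role in chromosome stability. Its control oocytes had 32.5, 202 and 454 CPM as lowest, median and highest cell, and its doxorubicin oocytes 28.4, 139.7 and 318 CPM. In control granulosa libraries it was at 0 in 2 cells, and the median and highest were 24.7 and 392 CPM. In doxorubicin granulosa libraries the lowest, median and highest values were 8.41, 541 and 1745 CPM, and 7 of 13 libraries lay above the highest of all 32 oocytes. Its group values were 247, 159.7, 68.0 and 607 CPM, so the highest group was one labelled granulosa.

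Tle6 encodes a member of the Groucho family of corepressors with WD40 repeats. Its cells ran from 956 through 2376 to 3800.5 CPM in control oocytes and from 1069 through 2019.8 to 4473 CPM in doxorubicin oocytes. Control granulosa libraries spanned 0.570 to 1064 CPM with a median of 113, and doxorubicin granulosa libraries 50.9 to 3778 CPM with a median of 1089. Zbed3 encodes a zinc finger protein that also binds Axin, a scaffold of the Wnt pathway. Its cells ran from 408 through 704 to 1100.4 CPM in control oocytes and from 256 through 589.6 to 856 CPM in doxorubicin oocytes. The granulosa values were 3.35, 124 and 257 CPM in controls and 69.5, 409 and 2245 CPM after doxorubicin, and 4 of the 13 doxorubicin libraries lay above all 32 oocytes.

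Detection in control granulosa libraries depended on the member. Khdc3 had at least 5 reads in 8 of 16 cells (50%, exact binomial 95% interval 24.7% to 75.3%), before and after each cell was thinned to 1000000 counts. Nlrp5 reached 5 reads in 15 of 16 cells and in 8 of 16 after thinning, Tle6 in 16 and 12, and Zbed3 in 16 and 15. Ooep and Padi6 were detected in all 16 at both depths. Of the doxorubicin granulosa libraries, only 1 missed 5 reads after thinning, for Nlrp5, and no oocyte missed 5 reads of any member. Of the 13 control libraries with more granulosa than oocyte markers, 6 had 5 reads of Khdc3, 12 of Nlrp5 and 13 of each other member, and all 5 such doxorubicin libraries had 5 reads of every member.

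Control oocytes held more of every member than control granulosa libraries, which is the comparison of cell type without the drug. The log2 ratio was 5.59 for Nlrp5 (interval 5.57 to 5.62), 4.28 for Padi6 (4.28 to 4.29), 3.42 for Tle6 (3.41 to 3.44) and 2.84 for Zbed3 (2.82 to 2.86). It was smaller for Khdc3 at 1.86 (1.83 to 1.89) and for Ooep at 1.66 (1.65 to 1.67). All 6 members were at least 2-fold higher in control oocytes, against 29% of the 12373 genes compared, which are those that reached 5 CPM in 1 group or both, and none was 2-fold lower, against 31.3%. Their median ratio was 3.13, against -0.03 for all those genes. Every oocyte lay above every granulosa library for Nlrp5, Padi6 and Zbed3, a separation in the same direction that 3.25% of the genes showed, and for no member was it the reverse, against 0.453%. For Tle6 15 of 16 oocytes lay above the highest granulosa library, for Khdc3 1 of 16 and for Ooep none. Without the 3 control granulosa libraries with more oocyte than granulosa markers, the ratio was 6.34 for Nlrp5, 5.35 for Padi6, 3.67 for Tle6, 2.79 for Ooep, 2.73 for Zbed3 and 2.62 for Khdc3, and the median was 3.23. Leaving out replicate 8 alone moved Ooep to 2.47, Padi6 to 4.98 and Khdc3 to 2.42, and leaving out replicate 13 moved Nlrp5 to 6.18.

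In oocytes no member reached a 2-fold difference between doxorubicin and control. Of the 6 genes, 5 had a lower group CPM after doxorubicin, with log2 ratios of -0.63 for Khdc3 (interval -0.65 to -0.61), -0.48 for Zbed3, -0.41 for Nlrp5, -0.31 for Padi6 and -0.11 for Tle6, and Ooep was at 0.16. The counting interval of Tle6 was -0.11 to -0.10 and that of Ooep 0.15 to 0.17. The median over the 6 was -0.36, while the median of the 11119 genes compared was 0.01 and their quartiles were -0.24 and 0.25. None of the members was 2-fold lower or higher, against 2.45% and 6.3% of the genes compared. The cells of both groups overlapped for every member, as they did for all 11119 genes (0% separated). Zbed3 was above the control median in 2 of 16 doxorubicin oocytes, Padi6 in 4, and Nlrp5, Tle6 and Khdc3 in 5 each, whereas Ooep was above it in 8 of 16. Of the oocyte growth genes, 5 of 5 compared were also lower after doxorubicin, 1 of them at least 2-fold, with a median of -0.52. In the same oocytes the oocyte markers had a group sum of 23969.6 CPM without and 19744 CPM with the drug, and the granulosa markers one of 183 and 587 CPM. Their part in the differences of the members was not tested. By cell medians Ooep was at -0.03. With only oocytes under 200 CPM of granulosa markers Tle6 was at 0.08, Khdc3 at -0.27 and Padi6 at -0.13. The sign of Tle6 turned to 0.05 without control oocyte replicate 16, the deepest library, and Khdc3 moved to -0.38 without that cell. Leaving out doxorubicin oocyte replicate 10, the cell with little Nlrp5, left Nlrp5 at -0.32. Without doxorubicin oocyte replicate 4, whose raw data are stated to be lost, Padi6 was at -0.44, Tle6 at -0.22, Ooep at 0.04 and the median at -0.46.

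The p53 targets on the list differed more in the same oocytes. All 8 were above control, 7 of them at least 2-fold, against 6.3% of the 11119 genes compared, with a median log2 ratio of 2.96. Cdkn1a, which encodes the cell cycle inhibitor p21, was at 15.7 CPM in the control group and 130.5 CPM in the doxorubicin group. Over the 16 doxorubicin oocytes the mean log2 level of the 6 members had Pearson r -0.05 and Spearman rho -0.09 with Cdkn1a, and r -0.24 without the 2 cells farthest from the median of Cdkn1a. The same mean had r 0.70 and rho 0.80 with the summed level of 6 oocyte growth genes (the zona pellucida genes Zp1, Zp2 and Zp3, with Gdf9, Bmp15 and Oosp1), and r 0.69 without the 2 farthest cells. In control oocytes that relation had r 0.83, rho 0.81 and r 0.76. Single members differed, with r 0.05 for Nlrp5, 0.10 for Zbed3 and 0.60 to 0.85 for the others in doxorubicin oocytes. In control oocytes Zbed3 had r -0.07 and the others 0.50 to 0.68. Over the doxorubicin oocytes the mean also had r 0.66, rho 0.69 and r 0.40 without the 2 farthest cells with the number of genes detected. With the granulosa marker sum these were r -0.63, rho -0.54 and r -0.43. With total counts they were r 0.52, rho 0.49 and r 0.38, and over control oocytes r 0.29, rho 0.10 and r -0.15. For single members in doxorubicin oocytes, total counts had r 0.61 to 0.65 with Ooep, Padi6 and Khdc3, and 0.02 to 0.29 with the others. These correlations are across cells that share a library type and a depth range, and are descriptions.

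Within the control oocytes the members did not all vary together. Over the 16 cells the 15 pairs of members had Spearman rho from -0.14 to 0.65 with a median of 0.35. The closest pair was Padi6 with Tle6, at rho 0.65, r 0.66 and r 0.37 without the 2 farthest cells. Khdc3 with Tle6 had rho 0.62, r 0.58 and r 0.74, and Khdc3 with Ooep had rho -0.14, r -0.13 and r -0.20. In doxorubicin oocytes the median rho was 0.29 and the range 0.20 to 0.84, with Padi6 and Khdc3 as the closest pair at r 0.88, and r 0.81 without the 2 farthest cells. The 5 pairs with Nlrp5 had a median rho of 0.34 and a highest of 0.42 in control oocytes. The 10 pairs without it had a median of 0.36, and no pair with Ooep exceeded 0.35. In doxorubicin oocytes the pairs with Nlrp5 had a median of 0.25 and a highest of 0.41, and the 10 without it a median of 0.34.

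Granulosa libraries held more of every member after doxorubicin than in controls. The log2 ratio was 3.16 for Khdc3 (interval 3.13 to 3.19), 2.77 for Zbed3 (2.75 to 2.79), 2.31 for Tle6 (2.30 to 2.33), 2.0 for Padi6 (1.99 to 2.01), 1.68 for Ooep (1.67 to 1.69) and 1.33 for Nlrp5 (1.31 to 1.36). All 6 were at least 2-fold higher, and none was 2-fold lower, against 20.6% and 20% of the 12194 genes compared, and the median was 2.16 against -0.03 for all genes compared. The cells of both groups overlapped for every member and for all genes compared (0% separated), with 8 of 13 doxorubicin libraries above the highest control library for Zbed3, 7 for Khdc3 and for Tle6, 3 for Padi6, and 2 for Ooep and for Nlrp5. The oocyte markers moved with this difference. Over the group, the 17 measured markers summed to 1617 CPM in controls and to 7999 CPM after doxorubicin, and 12 and 15 of them reached 5 CPM. Oosp1 was the only one at 0 in controls, and none was at 0 after doxorubicin. The granulosa markers summed to 5969 and 5258 CPM. When only libraries with more granulosa than oocyte markers were kept, 13 of 16 and 5 of 13, the median was 0.74 and 1 of 6 members, Nlrp5 at 1.21, was at least 2-fold higher. In these libraries 18.4% of 11889 genes compared were at least 2-fold higher and the median of all was -0.10. The value of Nlrp5 rested on doxorubicin replicate 14, with 459 CPM, and was -0.36 without it, when no member was 2-fold higher. Khdc3 and Zbed3 were both at 0.84, Padi6 at 0.64, Ooep at 0.50 and Tle6 at -0.28. Without doxorubicin replicate 8 Khdc3 was at 0.07, Ooep at -0.07 and the median at 0.18. These single libraries were left out after the data had been seen. In the kept libraries Padi6 had a lowest, median and highest value of 108, 365 and 748 CPM in controls and 69.0, 585 and 1006 CPM after doxorubicin. The part of the oocyte markers in the difference was not tested beyond this. Over the 13 doxorubicin granulosa libraries the mean of the members went with the number of genes detected at r -0.74, rho -0.77 and r -0.55 without the 2 farthest, and the part of this was not tested. Leaving out doxorubicin granulosa replicate 12 took Nlrp5 to 0.99, just under 2-fold, and leaving out control replicate 8 took Ooep to 2.49 and Padi6 to 2.69.

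**Figure D2:**
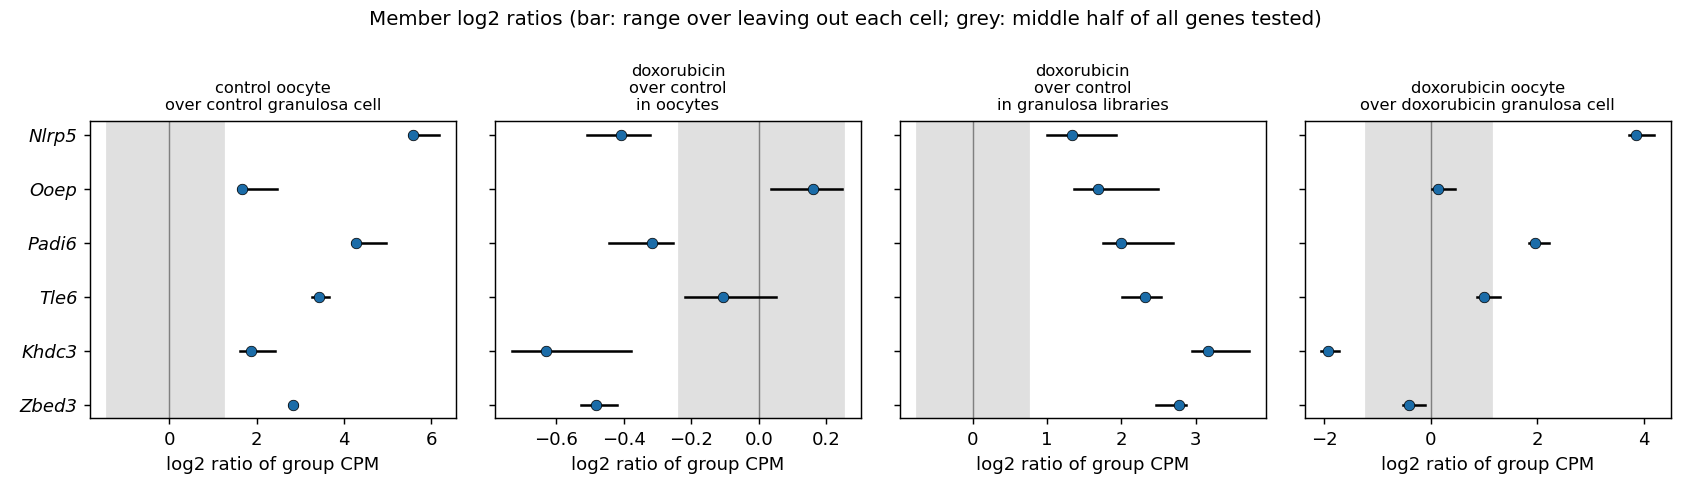
Log2 ratio of group CPM (horizontal axis) for each of the 6 genes in the 4 comparisons, with points for the value over all cells, bars for the range when each cell is left out in turn, and grey for the span between the quartiles of all genes compared. In oocytes the ratios lie between -0.63 and 0.16, and in granulosa libraries between 1.33 and 3.16, where no bar reaches 0.

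After doxorubicin the oocytes no longer stood above the granulosa libraries for every member. Nlrp5 was still far higher in oocytes, at a log2 ratio of 3.85 (interval 3.84 to 3.87), and 15 of 16 oocytes lay above the highest granulosa library. No member separated the groups in every cell, against 1.54% of genes with every oocyte higher and 0.193% with every oocyte lower. Padi6 was higher at 1.97 (1.96 to 1.97) and Tle6 at 1.00 (1.00 to 1.01), Ooep stood at 0.14 (0.13 to 0.15) and Zbed3 at -0.41 (-0.42 to -0.40). Khdc3 was lower in oocytes, at -1.93 (-1.95 to -1.91), and no doxorubicin oocyte reached the median granulosa library. Of the members, 3 were thus at least 2-fold higher and 1 at least 2-fold lower, against 27.6% and 28.2% of the 12428 genes compared, and the median was 0.57 against 0.02. Tle6 lay at the 2-fold limit and fell under it in several settings, which leaves 2 members. It was at 0.96 with every cell weighted equally, 0.89 by cell medians and 0.88 without doxorubicin granulosa replicate 14. Leaving out doxorubicin oocyte replicate 4 also left 2 members. With only the 5 doxorubicin granulosa libraries that had more granulosa than oocyte markers, all 6 members were at least 2-fold higher in oocytes, from 1.15 for Khdc3 to 4.73 for Nlrp5. Of the 12361 genes compared with these 5 granulosa libraries, 32.8% were at least 2-fold higher and 29.0% lower. Without granulosa replicate 13 of these Khdc3 was at 0.86. Khdc3 and Zbed3, which was at 1.41 in the kept libraries, thus turned their direction with the choice of libraries. Zbed3 was also at 0.52, and Ooep at -0.10, by cell medians.

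The make-up of the 6-gene sum, a proportion within each library, differed between oocyte and granulosa libraries. Nlrp5 made up 18.2% of the members' counts in control oocytes and 16.5% in doxorubicin oocytes, but 4.77% and 2.96% in control and doxorubicin granulosa libraries. Padi6 made up 59.1% and 57.1% in the oocyte groups and 38.4% and 37.9% in the granulosa groups. In the other direction, Ooep took 9.18% and 12.3% against 36.8% and 29.0%, and Zbed3 2.98% and 2.57% against 5.29% and 8.88%. Khdc3 took 0.96% and 0.75% in oocytes against 3.35% and 7.37% in granulosa libraries, while Tle6 took 9.59% and 10.7% against 11.3% and 13.9%. Tle6 depended on the choice of libraries. In those with more granulosa than oocyte markers it took 17.3% in controls and 9.74% after doxorubicin, the latter below doxorubicin oocytes. In the same libraries Padi6 took 33.3% and 35.6%, and Ooep 30.4% and 29.5%.

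**Figure D3:**
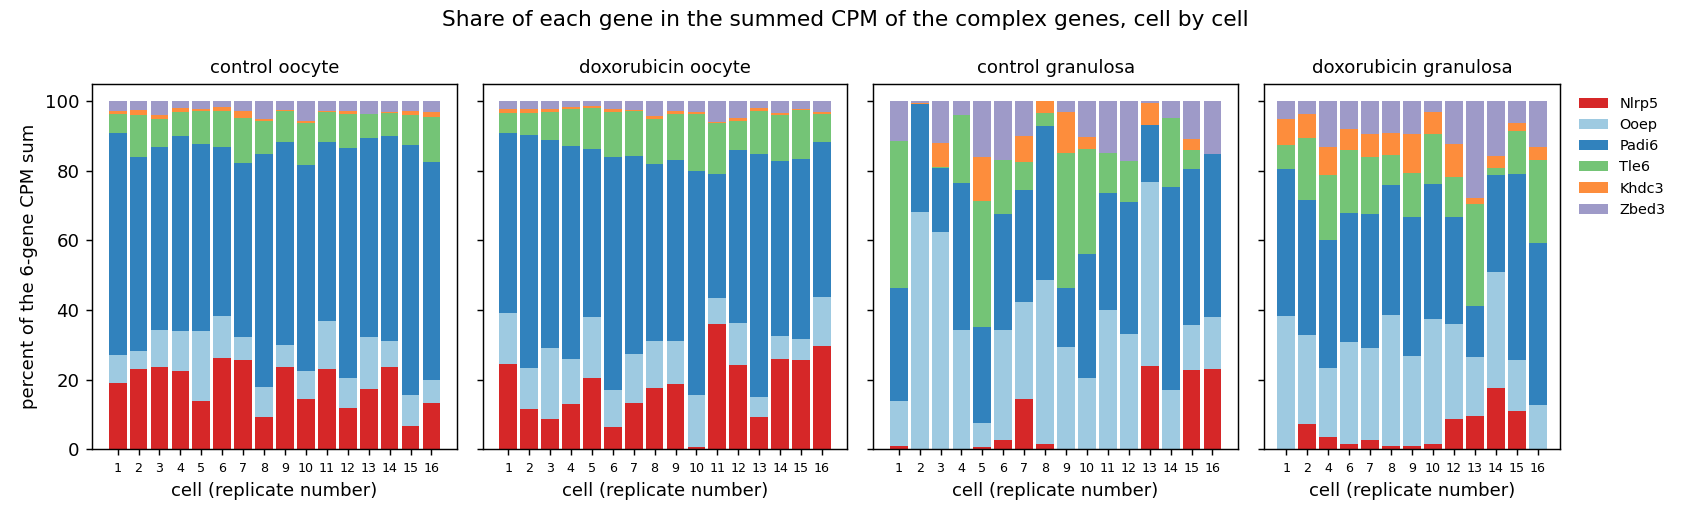
Percent of the summed CPM of the 6 genes that each gene takes (vertical axis), for every cell (horizontal axis, replicate number), by group. Padi6 and Nlrp5 fill most of each oocyte's bar, while Ooep, Khdc3 and Zbed3 take larger parts in most granulosa libraries and Nlrp5 takes at most 2.59% in 7 of the 13 doxorubicin libraries.

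The same held cell by cell for several members. The Khdc3 share of the sum was at most 2.08% in any oocyte, and 12 of 13 doxorubicin granulosa libraries lay above that, with a median of 6.35%. In control granulosa libraries 8 of 16 had a Khdc3 share above every oocyte and the other 8 had one below every oocyte, so that none fell inside the oocyte range. The Zbed3 share lay above that of every oocyte in 10 of 13 doxorubicin and 10 of 16 control granulosa libraries, and the Ooep share in 9 and 11. The Nlrp5 share did not separate them in this way. It lay below every oocyte in 2 of 13 doxorubicin and 8 of 16 control granulosa libraries, and inside the oocyte range in 11 and 8. Per 100 reads of Padi6 in the group, Khdc3 had 1.62 reads in control and 1.31 in doxorubicin oocytes, and 8.71 and 19.4 in the granulosa groups. Nlrp5 had 30.8 and 28.9 in the oocyte groups and 12.4 and 7.82 in the granulosa groups. Among the 5 doxorubicin granulosa libraries with more granulosa than oocyte markers, Khdc3 was 4.39%, Zbed3 12.6% and Nlrp5 8.14% of the members' counts, and the Zbed3 share of all 5 lay above every oocyte. Among the 13 such control libraries, Khdc3 was 3.58%, Zbed3 10.3% and Nlrp5 5.13%.

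A single library shows the contrast. Doxorubicin granulosa replicate 1 had an oocyte marker sum of 28894 CPM, inside the range of the control oocytes, and 1183 CPM of granulosa markers. It held 9885 CPM of Padi6, 8946 of Ooep and 1745 of Khdc3, the last above every oocyte, and 7.68 CPM of Nlrp5, below every oocyte. Replicate 4, with an oocyte marker sum of 15857 CPM, held 6328 CPM of Padi6, 1389.6 of Khdc3 and 593 of Nlrp5. Replicate 16, with 639 CPM of oocyte markers and 10515 of granulosa markers, held 471 CPM of Padi6, 38.3 of Khdc3 and 0.468 of Nlrp5.

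Across the 13 doxorubicin granulosa libraries the members other than Nlrp5 varied together. Their 10 pairs had Spearman rho from 0.75 to 0.97, whereas the 5 pairs with Nlrp5 had rho from 0.26 to 0.47. The oocyte marker sum, which holds no member, went with Padi6 at r 0.97, rho 0.97 and r 0.95 without the 2 farthest libraries, and with Khdc3 at r 0.95, rho 0.97 and r 0.92. With Nlrp5 it had r 0.36, rho 0.35 and r 0.67. Total counts per library had r -0.29 with Padi6, rho -0.21 and r -0.22 without the 2 farthest. In control granulosa libraries the 15 pairs had a median rho of -0.01, or 0.07 over the 13 with more granulosa than oocyte markers, and the oocyte marker sum went with Padi6 at r 0.80, rho 0.68 and r 0.69, and with Khdc3 at r 0.30, rho 0.20 and r -0.03. Over those 13 the values were r 0.61, rho 0.60 and r 0.63 for Padi6 and r 0.21, rho 0.12 and r 0.18 for Khdc3, while the 5 such doxorubicin libraries are too few for a correlation. The points of each group share a library type, and the sums share the depth of their library with the member.

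**Figure D4:**
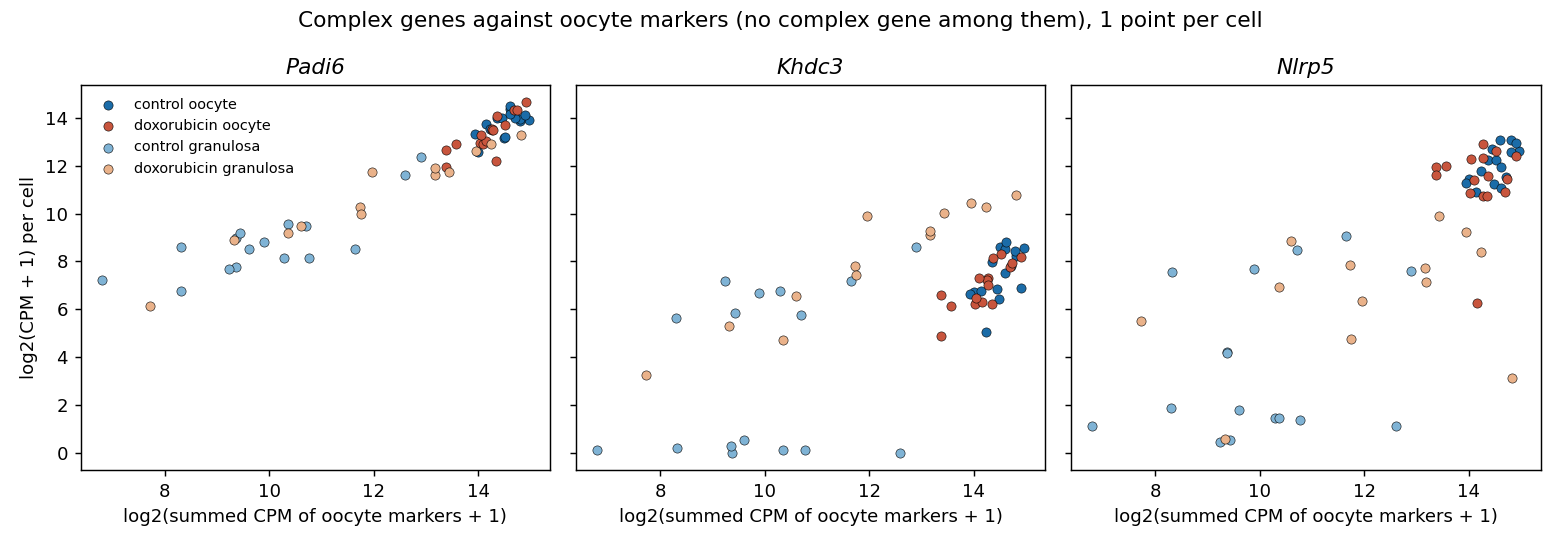
Padi6, Khdc3 and Nlrp5 (vertical axis, log2(CPM + 1)) against the summed CPM of the oocyte markers (horizontal axis, log2(sum + 1)), 1 point per cell and 1 colour per group. The marker sum of 4 of the 13 doxorubicin granulosa libraries, replicates 1, 4, 6 and 12, falls in the range of the oocytes. In all 4 of these Khdc3, at 1745, 1389.6, 1249 and 1049 CPM, lies above every oocyte. Nlrp5 of 1 doxorubicin oocyte, at 76.3 CPM, lies below several of the granulosa libraries.

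Genes linked to the complex or to its lattices were read from a list of 8. Nlrp14, an NLR family gene needed for early embryo development, was at 6543, 5455, 159 and 337 CPM in the 4 groups, given as control then doxorubicin oocytes and control then doxorubicin granulosa libraries. Nlrp4f was at 933, 738, 28.4 and 0.811 CPM. In the doxorubicin and control granulosa libraries its highest cells were at 3.43 and 374 CPM, its median cells at 0.590 and 0.375 CPM, and 10 of 13 and 8 of 16 libraries had 5 reads, so the group value and the median differed in direction. Uhrf1, a DNA methylation cofactor held in the oocyte cytoplasm, was at 1074, 664, 43.8 and 118 CPM. Of 5 listed genes compared between the control groups, 4 were at least 2-fold higher in oocytes, against 29% of all genes compared. Between doxorubicin and control oocytes 1 of 6 was at least 2-fold higher, Nlrp2, and 1 of 6 lower, Nlrp9a, against 6.3% and 2.45% of all genes compared, and both had 5 reads in 8 or fewer of the 16 cells of either group. Between the granulosa groups Nlrp14, Uhrf1 and Nlrp9a were at least 2-fold higher after doxorubicin, Nlrp9a in 1 library, and Nlrp4f was lower, against 20.6% and 20% of all genes compared. With only libraries with more granulosa than oocyte markers 0 of 4 compared were at least 2-fold higher and 1, Nlrp4f, was lower, against 18.4% and 22.7%. Members of this family are similar in sequence, and how reads shared between copies were counted is not given in the sources used here.

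Relatives of the KH domain members gave a mixed picture. Dppa5a, which encodes a KH domain protein of germ and stem cells, was at 877, 869.5, 261 and 1095 CPM in the same order. Khdc1b was at 528, 394, 23.1 and 101 CPM. In oocytes 0 of 4 were higher after doxorubicin and 1 of 4, Khdc1c, was at least 2-fold lower, at 6.95 and 3.47 CPM, against 2.45% of all genes compared. Between the granulosa groups Dppa5a and Khdc1b, the 2 compared, were at least 2-fold higher after doxorubicin, against 20.6% of all genes compared. In libraries with more granulosa than oocyte markers neither was, at 0.90 and -0.54, against 18.4%.

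Maternal-effect genes outside the complex and transcription factors of the early oocyte were compared as lists. Of 13 maternal-effect genes compared, none differed 2-fold between doxorubicin and control oocytes, against 6.3% higher and 2.45% lower among all genes compared, and the median log2 ratio was -0.17. In granulosa libraries 5 of 12 were at least 2-fold higher and 1 was lower after doxorubicin, against 20.6% and 20% of all genes compared, with a median of 0.80 against -0.03. With only libraries with more granulosa than oocyte markers 3 of 12 were at least 2-fold higher and 0 lower, against 18.4% and 22.7%, with a median of 0.56. Zar1, which encodes an RNA-binding protein of the oocyte, was at 378, 271, 66.7 and 747 CPM, and Gdf9, an oocyte-secreted growth factor from the growth list, at 964, 564, 68.1 and 1817 CPM. Like Khdc3, both had their highest group value in doxorubicin granulosa libraries, but not in those with more granulosa than oocyte markers, at 114 CPM for Zar1 and 190.1 CPM for Gdf9. Of 8 early transcription factors none differed 2-fold in oocytes, against 6.3% higher and 2.45% lower among all genes compared, with a median of -0.04. Lhx8 was at 225, 219, 1.82 and 0.800 CPM and Tbpl2 at 82.4, 58.6, 0.820 and 0.420 CPM, and both were under the limit of 5 CPM in both granulosa groups. Figla was at 457, 487, 49.2 and 191 CPM and Nobox at 2206, 1624, 89.8 and 250.3 CPM. Of the 6 factors compared between the granulosa groups 5 were at least 2-fold higher after doxorubicin, against 20.6% of all genes compared, with a median of 1.4. Of 5 compared in libraries with more granulosa than oocyte markers 1 was higher and 1 lower, against 18.4% and 22.7%, with a median of 0.49.

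Genes whose levels followed those of the members most closely were ranked among 4507 genes with at least 50 CPM in control oocytes and 5 reads in each of them. Over the 16 control oocytes the mean of the 6 members had its highest Spearman rho with Zfp57 (0.89), a regulator of imprinting, Zp3 (0.87), Rab11b (0.83), Tax1bp1 (0.80) and Cenpn (0.79). Over the 16 doxorubicin oocytes the same genes had rho 0.62, 0.68, 0.60, -0.02 and 0.34, so that the last 2 were not close in the other oocyte group. Over all 61 cells, where the groups themselves set much of the order, Padi6 was closest to Zp2 (rho 0.92) and Zp1 (0.91), Ooep to Dppa5a (0.88) and Uchl1 (0.85), and Tle6 to Zp3 (0.87) and 4930562C15Rik (0.84). Khdc3 was closest to Gdf9 (0.79) and Npm2 (0.79), Zbed3 to Gm37110 (0.85) and Gdf9 (0.83), and Nlrp5 to Zp2 (0.83) and Cyp46a1 (0.82). Over the 16 doxorubicin oocytes alone the same pairs, in that order, had rho 0.91 and 0.89 for Padi6 and 0.64 and 0.78 for Ooep. They had 0.46 and 0.64 for Tle6, 0.71 and 0.59 for Khdc3, 0.18 and 0.73 for Zbed3, and 0.18 and 0.003 for Nlrp5.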

How the data were processed

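Single cells were lysed and their mRNA was amplified with a kit for small inputs, per the labels' protocols, and all libraries carry 1 batch label. The authors deposited estimated counts, of which 34.05% of those above 0 are not whole numbers. The submitters' processing notes name Partek, Bowtie2, HISAT2, DESeq2 and the build mm10, with no role or version. The annotation and the handling of reads shared between genes are not given in the sources used here. The raw data of doxorubicin oocyte replicate 4 are stated to be lost, and its column was used.

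The estimated counts were rounded. Counts were summed over the cells of a group and divided by the total over all gene rows to give CPM. A group under 3 counts was set to 3. Ratios have exact conditional binomial 95% intervals, and shares of cells exact binomial ones. Genes were compared when 1 group or both reached 5 CPM, and a call means 2-fold. No test was made with 1 sample per group. No doublet caller was run, since each library is labelled as 1 cell, and no cells of a group agreed within sampling noise. The members, lists and marker sets were chosen with earlier results of these data known. All 6 members are named, and genes of the other lists may be. Likeness names the 5 genes closest to the member mean over control oocytes, and 2 per member over all cells. Alternatives were the mean or median over cells, edgeR TMM and DESeq2 size factors, other floors and filters, marker limits and leaving out each cell, and, added after seeing the data, leaving out each granulosa library among those kept by their markers. Scripts were tested on simulated data. Gene models came from GENCODE M21 and promoters from RefSeq, matched by symbol for all 6 members. Python 3.11.15, numpy 2.4.6, pandas 2.3.3, scipy 1.17.1, matplotlib 3.10.9, R 4.3.3, edgeR 4.0.16 and DESeq2 1.42.0 were used.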

Additional observations from a re-analysis of the deposited data

Results flagged for a closer look

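For 4 members the difference between doxorubicin and control had opposite signs in oocytes and in granulosa libraries, and it kept its sign when any 1 cell was left out. Nlrp5 had a log2 ratio of -0.41 in oocytes and 1.33 in granulosa libraries. Padi6 had -0.31 and 2.0, Khdc3 -0.63 and 3.16, and Zbed3 -0.48 and 2.77. With 1 sample per group the difference between the cell types was not tested. The oocyte marker sum moved with the granulosa values, with a median over cells of 862 CPM in controls and 3976 CPM after doxorubicin. In libraries with more granulosa than oocyte markers the 4 ratios were 1.21, 0.64, 0.84 and 0.84, and Nlrp5 was at -0.36 without doxorubicin granulosa replicate 14 of these, which was left out after the data had been seen.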

How the results depend on the processing

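In the order control oocytes over control granulosa libraries, doxorubicin over control in oocytes, the same in granulosa libraries, and doxorubicin oocytes over doxorubicin granulosa libraries, the median log2 ratios of the members were 3.13, -0.36, 2.16 and 0.57. They were 2.95, -0.37, 2.04 and 0.49 with every cell weighted equally and 4.48, -0.38, 3.16 and 0.71 as differences of the medians of log2(CPM + 1). TMM factors gave 3.16, -0.37, 2.17 and 0.58, and DESeq2 size factors 3.19, -0.36, 2.16 and 0.62. With oocytes under 200 CPM and granulosa libraries at or above 5000 CPM of granulosa markers they were 3.22, -0.20, 2.03 and 1.75, and in the last comparison 4 members were at least 2-fold higher and 0 lower. With only libraries whose own markers exceeded those of the other cell type they were 3.23, -0.36, 0.74 and 3.15. Under that choice 1 member was at least 2-fold higher in the third comparison, and 6 were higher and 0 lower in the fourth. The shares of all genes compared under that choice were 18.4% higher in the third, and 32.8% higher and 29.0% lower in the fourth. Tle6 reversed there to -0.28 between granulosa groups, and Khdc3 to 1.15 between doxorubicin groups, where Zbed3 turned from -0.41 to 1.41, and to 0.28 under the stricter limits. Leaving out each granulosa library of that choice in turn, added after seeing the data, gave medians of 3.14 to 3.39, 0.18 to 0.95 and 2.98 to 3.54 in the first, the third and the fourth comparison, and 0 to 3 members at least 2-fold higher in the third. In the third comparison, over all single cells or libraries left out under either choice, Nlrp5 ran from -0.36 to 1.92, Ooep from -0.073 to 2.49 and Tle6 from -0.50 to 2.54, and in the fourth Khdc3 ran from -2.05 to 1.92. Leaving out each cell of all gave medians of 3.02 to 3.28, -0.46 to -0.30, 1.91 to 2.59 and 0.46 to 0.82. A floor of 1 count changed no member. The cause of these shifts was not tested. Without a filter on low genes, 38.5%, 19.7%, 24.5% and 38.4% of all genes were at least 2-fold higher. By CPM, with no division by length, Nlrp5 was second in doxorubicin oocytes and Padi6 first in control granulosa libraries, where Ooep led per kb. No paired analysis was possible because the replicate numbers only name cells. With 1 sample per group, depth sets only the counting error, which is small beside the spread of cells.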
